A study of Mus musculus with 8 samples.

Results

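The 8 genes described here, Fkbp11, Fkbp2, Ppib, Sdf2l1, Creld2, Dnajb11, Dnajc3 and Hyou1, encode prolyl isomerases and co-chaperones of the endoplasmic reticulum (ER). They are 8 of the 24421 genes counted in every sample. The genes were chosen by name, with their expression in beta cells after partial pancreatectomy (PPTx) and across hormone classes already known. Their PPTx-to-control and class differences are therefore given as descriptions, with no p-value for a gene. Counts of genes past a threshold in these contrasts stand beside the same count over all genes, and nothing is read from them. Single-cell counts came from islets of mice aged 8 weeks, with 4 control samples, which received no operation, and 4 samples taken 2 days after excision of 50% of the pancreas. The study's methods state that all mice were male C57BL/6J and that each sample combined the islets of 1 to 3 mice. They also state that the splenic side was excised, so the PPTx islets came from the pancreas that remained, and pancreatic region and operation cannot be told apart. No sham operation was described, so surgery itself and loss of tissue cannot be told apart either.

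The ER folds secreted proteins such as proinsulin, and beta cells are known for their heavy load of this single client. Hspa5 (BiP) is the main Hsp70 chaperone of this compartment. J-domain proteins bring clients to it and start its ATP hydrolysis, and nucleotide exchange factors release the client. Prolyl isomerases turn the peptide bond before proline, a slow step in folding. When unfolded protein accumulates, the sensors Ern1, Atf6 and Eif2ak3 start the unfolded protein response, which raises transcription of many ER folding genes.

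By role, Fkbp11 and Fkbp2 are FK506-binding prolyl isomerases and Ppib is cyclophilin B. In RefSeq on GRCm38.p6, which is the mm10 build of the files, Fkbp11 lies at chr15:98724368-98728198 and Fkbp2 at chr19:6977737-6980464, both on the minus strand. Ppib lies at chr9:66060169-66066629 on the plus strand. Dnajb11 (chr16:22857845-22879634) and Dnajc3 (chr14:118937932-118981702) are J-domain co-chaperones of Hspa5, and Sdf2l1 (chr16:17130138-17132383) binds Dnajb11. Hyou1 (chr9:44379490-44392369) is a nucleotide exchange factor of Hspa5. Creld2 (chr15:88819646-88826681) is an ER-resident protein induced by ER stress, with disulfide isomerase activity. Of the 8 loci, 4 overlap another annotated gene in these coordinates, namely Fkbp2 (LOC114841036), Ppib (Snx22), Dnajb11 (the non-coding Gm30505) and Dnajc3 (the pseudogene Gm4678). Reads from an overlapping gene could be counted for either, and the sources used here do not say whether strand was used in counting.

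Promoters were available for 7 of the 8 genes as RefSeq windows of 300 bases, from 250 bases before to 50 bases after the annotated start. These windows were searched on both strands for 3 short motifs of the unfolded protein response. The ER stress element was taken as CCAAT and CCACG separated by 9 bases, the second ER stress element as ATTGG and CCACG separated by 1 base, and the unfolded protein response element by its core TGACGTG. None of these patterns contains another. Of 27025 genes with a promoter, 0.137% held the first, 0.0444% the second, 2.22% the third and 2.39% any of them. Among the 7 genes, 2 held the first, 1 the second and 1 the third. The 4 matches are shown because they are the only ones in these windows, with the matching bases in capitals and 4 flanking bases on each side.
Creld2, chr15:88819516-88819542, minus strand: tggaCCAATtgaggctcgCCACGagaa
Dnajc3, chr14:118937823-118937849, plus strand: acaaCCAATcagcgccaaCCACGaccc
Dnajb11, chr16:22857848-22857866, plus strand: ggcgATTGGcCCACGcctg
Fkbp11, chr15:98727617-98727631, plus strand: aagcTGACGTGtttc
The Creld2 match lay 126 to 108 bases before the gene's start, on the strand opposite to the gene. The Dnajc3 match lay 105 to 87 bases before its start, and the Dnajb11 match 7 to 17 bases after its start, both on the gene's own strand. The Fkbp11 match covered the start of the second of its 2 annotated promoters, on the opposite strand. A match describes letters only. No match was found for Fkbp2, Ppib and Sdf2l1, which says only that these letters are not in their windows.

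Each cell was assigned to the hormone with the most UMIs (unique molecular identifiers, counted molecules): Ins1 and Ins2 together for beta, Gcg for alpha, Ppy for PP and Sst for delta cells. The 1232 cells kept comprised 376 control and 582 PPTx beta cells, 98 and 23 alpha cells, 34 and 103 PP cells, and 12 and 4 delta cells. Totals per sample over all deposited cells, before this filtering, ranged from 236645 to 1580152 UMIs, and 1 barcode occurred in more than 1 sample. The defining markers were present in their classes, except that Mafa had 2 UMIs in all beta cells and Tff2 none in PP cells. Cell composition moved with the operation. Alpha cells made up 16.4% ± 8.48 (SD, n = 4 samples) of control cells and 3.36% ± 1.92 (SD, n = 4) of PPTx cells, and PP cells 6.29% ± 2.80 (SD, n = 4) and 14.3% ± 1.61 (SD, n = 4). CPM is a gene's UMIs per 1000000 UMIs of the summed cells. In beta cells, the summed markers of PP cells ranged from 287.2 to 5593 CPM in control and from 3290 to 7517 CPM in PPTx samples (3 of 4 detected). Alpha markers there ranged from 1707 to 2683 CPM in control and from 1948 to 4039 CPM in PPTx samples (6 of 6). Delta markers ranged from 110 to 1534 CPM and from 228 to 821 CPM (3 of 4). The summed acinar markers ranged from 2.12 to 15.0 CPM and from 5.13 to 109 CPM (5 of 6 detected), ductal markers from 21.2 to 102 and from 42.1 to 188 CPM (4 of 5), immune markers from 0 to 27.5 and from 0 to 107 CPM (4 of 4), and stellate markers from 0 to 21.8 and from 1.03 to 228 CPM (4 of 4). Endothelial markers (2 of 4) reached 9.97 and 3.78 CPM at most, and Ghrl, which marks epsilon cells, 0.787 CPM in control and 5797 CPM in 1 PPTx sample. The part of these cells and transcripts in the differences below was not tested. Values within beta cells refer to cells so assigned, and the number of molecules per cell cannot be told from CPM alone.

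In beta cells, the first comparison was PPTx against control. The prolyl isomerases were higher in every PPTx sample than in any control sample. Fkbp11 measured 94.7, 99.5, 145 and 139 CPM in the 4 control samples and 322, 341, 277 and 275 CPM in the 4 PPTx samples. Control and PPTx samples were well apart, with a mean of 119 ± 26.0 against 304 ± 32.9 CPM (SD, n = 4 each). The log2 fold change fitted by edgeR was 1.17 ± 0.17 (SE). Ppib measured 105, 106, 143 and 185 CPM in control and 281, 327, 255 and 281 CPM in PPTx samples, a log2 fold change of 0.92 ± 0.18 (SE). Its groups did not overlap. Fkbp2 differed less but was the most even gene of the set within groups. It measured 339, 332, 316 and 325 CPM in control and 501, 483, 453 and 467 CPM in PPTx samples. Its log2 fold change was 0.44 ± 0.15 (SE).

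Among the co-chaperones, Sdf2l1 and Creld2 showed the larger differences. Sdf2l1 measured 94.7, 106, 169 and 161 CPM in control and 342, 388, 289 and 233 CPM in PPTx samples, a log2 fold change of 1.05 ± 0.19 (SE). Creld2 measured 59.8, 116, 148 and 121 CPM in control and 206, 334, 258 and 268 CPM in PPTx samples, a log2 fold change of 1.04 ± 0.20 (SE). In both genes the lowest PPTx sample lay above the highest control sample. The J-domain genes overlapped between the groups. Dnajb11, the partner of Sdf2l1, measured 34.9, 59.3, 127 and 119 CPM in control and 99.7, 156, 142 and 131 CPM in PPTx samples, with a log2 fold change of 0.34 ± 0.24 (SE). Control samples 1 and 2 were low, while samples 3 and 4 reached the range of PPTx. Dnajc3 measured 349, 267, 357 and 388 CPM in control and 384, 533, 417 and 499 CPM in PPTx samples, with a log2 fold change of 0.32 ± 0.16 (SE). Only PPTx sample 1 fell within the control range. Hyou1 measured 54.8, 52.9, 66.9 and 35.6 CPM in control and 84.5, 75.6, 103 and 38.3 CPM in PPTx samples, with a log2 fold change of 0.41 ± 0.25 (SE). PPTx sample 4 lay among the control samples.

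**Figure D1:**
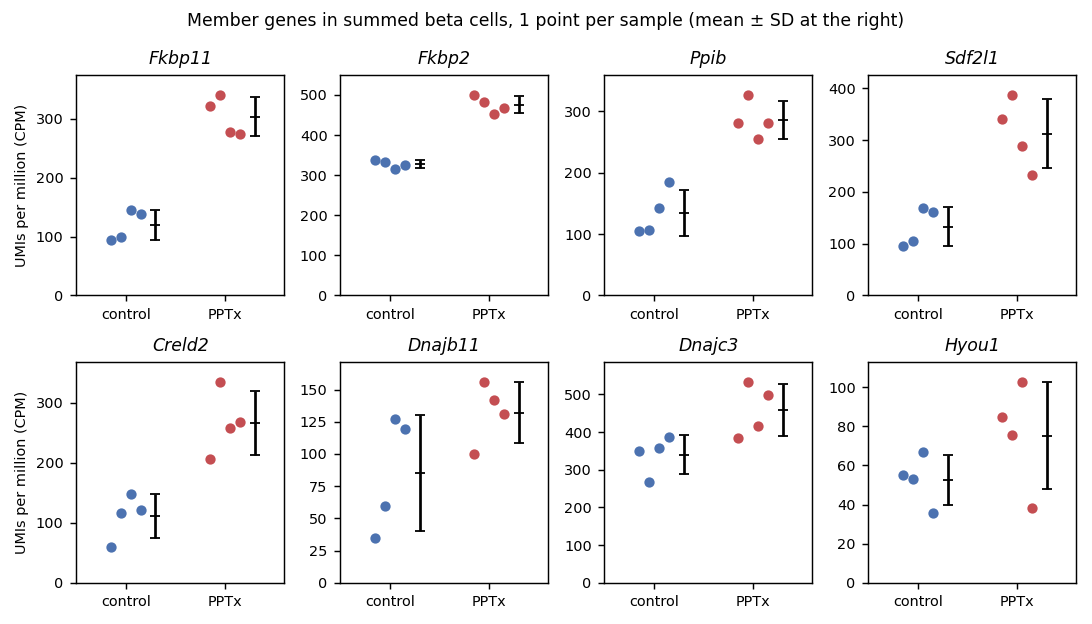
CPM (UMIs per 1000000, vertical axes, each from 0) of the 8 genes in beta cells summed per sample, for control (blue) and PPTx (red). Each point is 1 sample and the bar beside each group is the mean ± SD (n = 4). The groups are apart for Fkbp11, Fkbp2, Ppib, Sdf2l1 and Creld2 and overlap for Dnajb11, Dnajc3 and Hyou1.

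All 8 genes passed the filter on low counts in beta cells. At an adjusted p of 0.05, edgeR called 4 of the 8 higher in PPTx (Fkbp11, Ppib, Sdf2l1 and Creld2), beside 0.185% of all 5931 genes tested. Groups did not overlap in 5 of the 8, beside 4.91% of all genes on the CPM scale and 2.95% after TMM scaling, which gave the same 5 genes. Nothing is read from these counts, since this contrast chose the genes. The median log2 fold change was 0.68 over the 8 genes and -0.01 over all genes tested. Insulin transcripts took 60.6% ± 2.07 (SD, n = 4) of the UMIs of control and 56.4% ± 4.13 (SD, n = 4) of those of PPTx beta cells. Over all genes tested, the median log2 ratio of raw CPM between PPTx and control was 0.09, against -0.01 after TMM scaling. Without control sample 1, control sample 2 or PPTx sample 1, only 1 of the 8 genes was called. Over all genes, 2 of 6325, 1 of 6341 and 1 of 6339 were called higher in these fits. The median log2 fold change of the 8 genes there was 0.64, 0.64 and 0.68. The number called was 4 in the 276 control and 340 PPTx beta cells without any UMI of an acinar, ductal, endothelial, immune or stellate marker, an alternative chosen after seeing the data.

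The same difference was seen in single beta cells. To compare cells at 1 depth, each was thinned at random to 2600 UMIs, which left out 21 control and 61 PPTx beta cells that were shallower. The median cell then held 2, 3, 4 and 3 UMIs of the 8 genes together in the 4 control samples and 5, 6, 5 and 6 UMIs in the 4 PPTx samples. The whole distribution lay higher in PPTx. The 90th percentile was 6.60 ± 1.25 UMIs (SD, n = 4) in control and 9.95 ± 0.82 UMIs (SD, n = 4) in PPTx samples, and the 10th percentile was 1 UMI in each control sample and 2.25 ± 0.50 UMIs (SD, n = 4) in PPTx samples. Cells without any UMI of the set made up 5.52% ± 1.6 (SD, n = 4) of thinned control and 1.16% ± 1.1 (SD, n = 4) of thinned PPTx beta cells, and 1.39% ± 0.45 and 0.29% ± 0.36 without thinning. The variance exceeded the mean in every sample, with ratios from 1.1 to 1.81 in control and from 1.55 to 1.89 in PPTx samples.

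**Figure D2:**
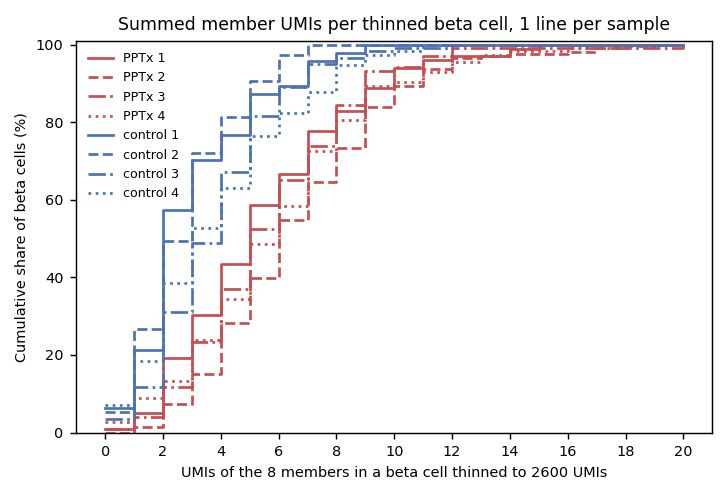
Cumulative share of beta cells (vertical axis, %) by the number of UMIs of the 8 genes together in a cell thinned to 2600 UMIs (horizontal axis), with 1 line per sample, control in blue and PPTx in red. The 4 PPTx lines lie to the right of the 4 control lines over most of the range, with medians of 5 or 6 against 2 to 4 UMIs.

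By gene, a UMI of Fkbp11 was present in 23.4% ± 5.29 (SD, n = 4) of thinned control and 47.3% ± 1.956 (SD, n = 4) of thinned PPTx beta cells, and in 45.3% and 71.4% without thinning. For Creld2 the thinned shares were 23.6% ± 8.38 and 44.3% ± 5.19 (SD, n = 4 each), and for Sdf2l1 27.5% ± 5.09 and 49.2% ± 8.89. A larger share of cells held a molecule of these genes in PPTx. Dnajc3 was found in 58.5% ± 5.04 and 64.1% ± 4.91 of thinned cells and Hyou1 in 11.3% ± 2.67 and 17.1% ± 6.56. These last shares differed by about the spread between samples or less.

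The second comparison was across hormone classes, in samples with at least 5 cells of both classes, which gave 6 samples for alpha and 7 for PP cells. On the mean over samples, beta cells had more of every gene of the set. Beta was the higher class in each sample, except that against alpha cells Creld2 and Sdf2l1 were higher in beta in 5 of 6. The exceptions were control sample 1 for Creld2 (131 CPM in alpha and 59.8 CPM in beta cells) and control sample 2 for Sdf2l1 (124 and 106 CPM). Fkbp11 differed the most from alpha cells, with 182.8 ± 102 CPM (SD, n = 6) in beta and 27.5 ± 22.1 CPM (SD, n = 6) in alpha cells of the same samples. Its fitted difference was 3.03 ± 0.33 (log2, SE) from alpha and 1.90 ± 0.20 from PP cells, where it measured 64.1 ± 27.9 CPM (SD, n = 7). Ppib measured 100.5 ± 93.2 CPM in alpha and 76.3 ± 14.7 CPM in PP cells, differences of 1.02 ± 0.23 and 1.69 ± 0.19 (log2, SE). Fkbp2 was the most evenly spread over the classes, with 215 ± 60.0 CPM in alpha and 232 ± 34.4 CPM in PP cells, and differed by 1.07 ± 0.18 and 0.88 ± 0.14 (log2, SE). These 2 classes did not differ for Fkbp2 beyond their spread.

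The co-chaperones were likewise lower in alpha and PP cells. Sdf2l1 was at 47.5 ± 41.4 CPM (SD, n = 6) in alpha and 38.4 ± 19.4 CPM (SD, n = 7) in PP cells, differences of 2.35 ± 0.28 and 2.71 ± 0.22 (log2, SE) from beta cells. Creld2 was at 64.1 ± 36.4 and 54.4 ± 18.0 CPM, differences of 1.86 ± 0.27 and 2.01 ± 0.22. Dnajb11 was at 55.0 ± 34.8 and 24.98 ± 17.9 CPM, differences of 1.40 ± 0.29 and 2.38 ± 0.29. Dnajc3, at 148 ± 79.9 and 175 ± 35.0 CPM, differed by 1.45 ± 0.19 and 1.25 ± 0.15, and Hyou1, at 20.9 ± 22.3 and 32.4 ± 9.40 CPM, by 1.33 ± 0.38 and 1.24 ± 0.31. Alpha and PP cells overlapped in all 8 genes. All 8 were called higher in beta than in alpha cells, where 21.3% of 1978 genes tested were, and all 8 higher than in PP cells, where 16.0% of 3009 were. These classes are part of how the genes were selected, so the counts are descriptions.

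Beta-cell transcripts can be counted in other cells through free RNA or doublets, neither of which was measured here. In the same samples Ins2 in alpha and PP cells was 2.05% and 2.00% of its level in beta cells. The 8 genes stood at 15.0% (Fkbp11) to 57.3% (Fkbp2) of the beta level in alpha cells and at 15.9% (Sdf2l1) to 56.4% (Fkbp2) in PP cells on the means over samples. Single samples varied. In alpha cells of PPTx sample 2, Ins2 measured 30191 CPM against 455527 CPM in beta cells, while Fkbp11 measured 19.6 against 341 CPM, a smaller share than that of Ins2. In control sample 1, which held 6 alpha cells, only Fkbp2 and Creld2 had any UMI in them. The part of beta-cell transcripts in the values of alpha and PP cells was not tested.

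**Figure D3:**
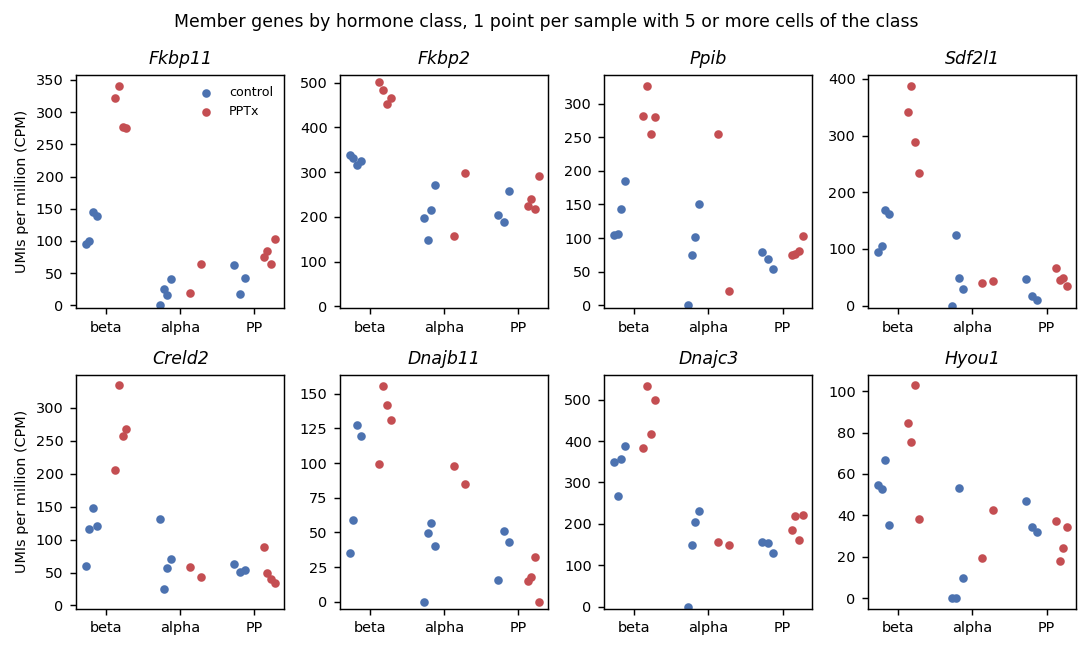
CPM (UMIs per 1000000, vertical axes) of the 8 genes in beta, alpha and PP cells summed per sample, control in blue and PPTx in red. Each point is 1 sample with 5 or more cells of the class. The alpha and PP points lie mostly below the beta points of the same gene, as for Fkbp11 with means of 27.5 CPM in alpha and 64.1 CPM in PP cells.

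Delta cells were too few for a fit, since only control sample 4 held 5 of them. Pooled over all 16 delta cells, Fkbp2 was at 446 CPM (95% Poisson interval 279.8 to 676), Dnajc3 at 406 CPM (248 to 627) and Ppib at 223 CPM (111 to 399), from 22, 20 and 11 UMIs. Fkbp11 had 4 UMIs, at 81.2 CPM (22.1 to 208), and Sdf2l1 and Creld2 had 1 each, at 20.3 CPM (0.51 to 113). These intervals cover counting error only. Over all cells, the beta intervals of Fkbp11 (219.9 to 243.7 CPM), Sdf2l1 (237.7 to 262 CPM) and Creld2 (199 to 222 CPM) lay above those of delta cells. Those of Fkbp2 (394 to 425 CPM), Dnajc3 (399 to 430 CPM) and Ppib (216 to 240 CPM) lay within the delta intervals. Most delta cells, 12 of 16, were control cells, whereas most beta cells, 582 of 958, were PPTx cells. In control samples alone, Fkbp11 was at 104 CPM (28.4 to 267) in delta and 132 CPM (119 to 146) in beta cells, and Sdf2l1 at 26.0 CPM (0.66 to 145) and 151 CPM (137 to 166). Creld2 was at 26.0 CPM (0.66 to 145) and 128 CPM (115 to 142). Within control samples the intervals of delta and beta cells thus overlapped for these 3 genes. The difference between the classes was not tested.

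The third comparison was PPTx against control in the other hormone cells. In alpha cells only Fkbp2 passed the filter on low counts, among 423 genes, and its log2 fold change was 0.06 ± 0.42 (SE, 4 control and 2 PPTx samples). In PP cells Fkbp2 and Dnajc3 passed, among 705 genes, with log2 fold changes of 0.06 ± 0.28 and 0.38 ± 0.30 (SE, 3 control and 4 PPTx samples). edgeR called none of them, and neither did DESeq2, and none had an unadjusted p under 0.05 in either. The shares of all genes called higher by edgeR were 0.709% in alpha and 0% in PP cells. At an unadjusted p under 0.05, edgeR had 15 genes higher and 19 lower in alpha, and 23 and 17 in PP cells. DESeq2 had 6 higher and 8 lower in alpha, and 7 and 5 in PP cells. In PP cells, Fkbp11 measured 62.9, 17.1 and 42.8 CPM in 3 control samples, from 4, 1 and 4 UMIs, and 74.4, 84.8, 64.3 and 103 CPM in the 4 PPTx samples, from 10, 19, 8 and 6 UMIs. The lowest PPTx sample lay above the highest control sample by less than 1 UMI is worth in either, so nothing is read from their order. Dnajb11 was lower on average in PPTx PP cells, with 15.7, 51.4 and 42.8 CPM in control and 14.9, 17.8, 32.1 and 0 CPM in PPTx samples. Creld2 measured 62.9, 51.4 and 53.6 CPM in control and 89.3, 49.1, 40.2 and 34.2 CPM in PPTx samples. Sdf2l1 measured 47.2, 17.1 and 10.7 CPM in control and 67.0, 44.6, 48.2 and 34.2 CPM in PPTx samples. It was higher on average in PPTx, where Creld2 was spread on both sides of its control values. Ppib measured 78.7, 68.6 and 53.6 CPM in control and 74.4, 75.8, 80.4 and 103 CPM in PPTx samples, and Hyou1 47.2, 34.3 and 32.1 CPM and 37.2, 17.8, 24.1 and 34.2 CPM. The groups overlapped for these genes, and they and Fkbp11 rest on at most 19 UMIs per sample. Ins2 was also counted in these cells, with 2518, 5879 and 8600 CPM in control and 5933, 15571, 3053 and 28764 CPM in PPTx samples. Its part in the Fkbp11 values was not tested.

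The difference between the PPTx effect in beta cells and that in all other hormone cells together was fitted as an interaction over 8 samples. It was largest for Creld2, at 0.93 ± 0.39 (log2, SE), then Ppib at 0.82 ± 0.31, Dnajb11 at 0.78 ± 0.47, Sdf2l1 at 0.59 ± 0.43 and Hyou1 at 0.56 ± 0.52. It was 0.16 ± 0.22 for Fkbp2, 0.15 ± 0.24 for Dnajc3 and -0.10 ± 0.39 for Fkbp11. edgeR called 0 of the 8 genes, of which 2 had an unadjusted p under 0.05, and DESeq2 called 0, of which 1 did, beside 0.391% of 2557 genes called higher by edgeR. Over all 2557 genes, 125 were higher at an unadjusted p under 0.05 by edgeR and 61 by DESeq2. This contrast contains the beta-cell difference that chose the genes, so nothing is read from these counts. The other hormone cells were mostly alpha in control (98 alpha and 34 PP cells) and mostly PP in PPTx samples (23 and 103), and the part of this change of mix in the values was not tested.

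Comparisons among beta cells of the same sample were not used to choose the genes and were tested. These comparisons were themselves chosen with earlier results of these data known. The first set the upper tercile of beta cells by total UMIs in each sample (UMI-rich) against the lower (UMI-poor), 317 cells in each over 8 samples. Median totals per sample ranged from 4758 to 13548 UMIs in the upper and from 2498 to 7561 UMIs in the lower tercile. Creld2 rose with the total. It had a lowest, median and highest value of 91.1, 171 and 398 CPM in UMI-rich cells and 43.9, 148 and 259 CPM in UMI-poor cells, and was higher in 8 of 8 samples. The log2 difference was 0.52 ± 0.13 (SE) with an adjusted p of 0.0155 (edgeR, Benjamini-Hochberg over 1802 genes). Sdf2l1 rose as well, by 0.51 ± 0.13 (SE) with an adjusted p of 0.0181 by edgeR. Its values ranged over 68.3, 211 and 452 CPM in UMI-rich and 90.6, 180.4 and 337 CPM in UMI-poor cells, and it was higher in 5 of 8 samples on this unscaled measure. These were 2 of the 8 genes called higher, beside 1.05% of all genes tested.

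The other 6 genes did not pass. Dnajc3 differed by 0.36 ± 0.12 (SE), Fkbp11 by 0.39 ± 0.13, Dnajb11 by 0.38 ± 0.16 and Hyou1 by 0.36 ± 0.22, with adjusted p of 0.0762, 0.114, 0.230 and 0.472 by edgeR, each higher in 5 or 6 of 8 samples. Ppib differed by 0.09 ± 0.13 and Fkbp2 by -0.09 ± 0.11, with adjusted p of 0.811 and 0.776 by edgeR. Their 95% intervals were -0.16 to 0.35 and -0.30 to 0.13, and Fkbp2 was lower in UMI-rich cells in 7 of 8 samples on the CPM scale. DESeq2 called none of the 8 genes in this comparison, beside 10 of all 1802 genes called higher. The median log2 difference of the 8 genes was 0.37 by DESeq2 and 0.37 by edgeR. With cells first thinned to equal UMIs, edgeR called none of the set and none of all 570 genes tested. With thinned cells the median log2 difference was 0.13 over the 7 genes of the set tested, against 0.37 over all 8 without thinning. The differences were 0.34 for Creld2, 0.28 for Sdf2l1, 0.13 for Fkbp11 and 0.06 for Dnajc3. Over 12 alternatives, thinned cells among them, Dnajb11 ranged from 0.297 to 0.456, Ppib from 0.007 to 0.204 and Fkbp2 from -0.219 to -0.049. Without PPTx sample 2 edgeR also called none, and without control sample 3, PPTx sample 1 or PPTx sample 3 it called 1. In these fits the median log2 difference of the 8 genes was 0.41, 0.36, 0.34 and 0.33. Over all genes tested, 8, 10, 9 and 10 were called higher there. Over the alternatives the adjusted p by edgeR or DESeq2 ranged from 0.00867 to 0.473 for Creld2 and from 0.00965 to 0.522 for Sdf2l1. Of the 12 alternatives, 9 called Creld2, 6 called Sdf2l1, 1 called Dnajc3 and 1 called Fkbp11.

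Replicating beta cells were taken as those with at least 2 UMIs of 10 cell-cycle markers such as Top2a and Mki67, which gave 41 of 958 beta cells. In 6 samples with at least 3 of them, 39 such cells were compared with the 786 others. Sdf2l1 was lower in replicating cells in 6 of 6 samples. It had a lowest, median and highest value of 43.2, 182 and 275 CPM against 164, 266 and 396 CPM, from 60 UMIs in replicating cells. The log2 difference was -0.75 ± 0.25 (SE) with an adjusted p of 0.0482 by edgeR, beside 5.34% of 2658 genes called in either direction. The call was lost in 10 of 11 alternatives, among them DESeq2 and the removal of any one of the 6 samples, with adjusted p from 0.0323 to 0.153. The log2 difference of Sdf2l1 ranged from -1.36 to -0.56 over these alternatives. Sdf2l1 was thus 1 of the 8 genes called.

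The other genes of the set were not called between replicating and other beta cells. Hyou1 differed by -0.87 ± 0.44 (log2, SE), from 14 UMIs in replicating cells, Dnajb11 by -0.55 ± 0.32, Ppib by -0.35 ± 0.24, Fkbp11 by -0.29 ± 0.24 and Dnajc3 by -0.18 ± 0.22. Fkbp2 differed by 0.03 ± 0.22 and Creld2 by 0.29 ± 0.23. The median log2 difference over all 2658 genes tested was itself below 0, at -0.12, with quartiles of -0.46 and 0.21, and Ppib, Fkbp11, Dnajc3 and Fkbp2 lay between these quartiles. The adjusted p ranged from 0.277 to 0.965 by edgeR. The 95% intervals were wide, from -0.39 to 0.46 for Fkbp2 and from -1.73 to -0.02 for Hyou1. Summed over the set, replicating cells ranged from 1080 to 2617 CPM and other beta cells of the same samples from 1467 to 2642 CPM.

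**Figure D4:**
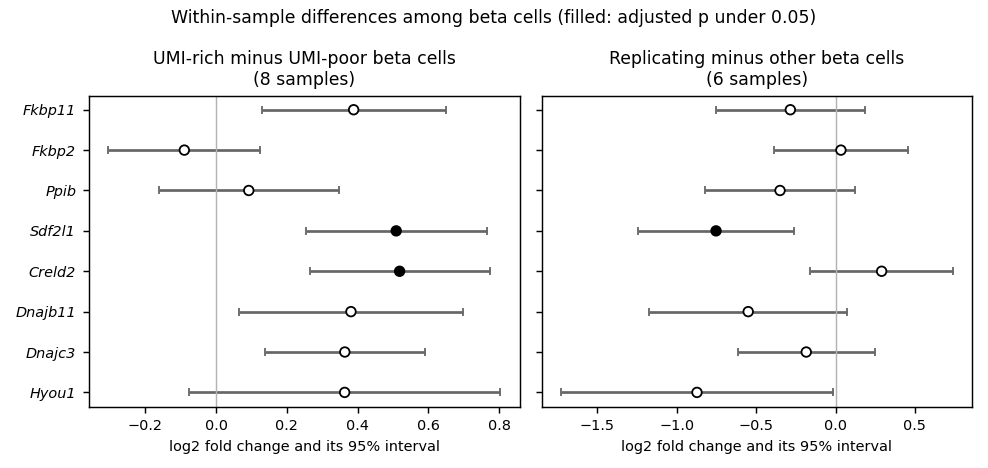
Log2 fold change with its 95% interval from the SE (horizontal axes) of the 8 genes between UMI-rich and UMI-poor beta cells (8 samples) and between replicating and other beta cells (6 samples). Filled points passed an adjusted p of 0.05 by edgeR: Creld2 and Sdf2l1 were higher in UMI-rich cells and Sdf2l1 was lower in replicating cells.

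Genes of related function give the setting for PPTx against control in beta cells. Each list below is described by the genes that could be tested, from 5931 in all, and up to 3 genes are named, those with the largest difference among its genes of at least 50 mean CPM. Fkbp9 was the only 1 of 5 other ER prolyl isomerases with enough counts, at 117 ± 10.2 CPM in control and 110 ± 15.7 CPM in PPTx samples (SD, n = 4 each), a log2 fold change of -0.19 ± 0.16 (SE). Of 21 prolyl isomerases outside the ER, 13 were tested, with a median log2 fold change of -0.04 and none called. Ppia, the cytosolic cyclophilin A, had 44.4 ± 6.55 CPM in control and 81.7 ± 71.9 CPM in PPTx samples, Fkbp1b 125 ± 23.8 and 110 ± 31.3 CPM, and Fkbp8 59.3 ± 11.3 and 68.1 ± 9.25 CPM. The SD of Ppia in PPTx was close to its mean.

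Of 11 other ER J-domain and nucleotide exchange genes, 8 were tested, with a median of 0.16 and none called. Dnajb9, a J-domain protein induced in the unfolded protein response, had 189 ± 52.5 CPM in control and 315 ± 70.1 CPM in PPTx samples, a log2 fold change of 0.57 ± 0.18 (SE), without overlap of the groups. Dnajc10, a disulfide reductase with a J-domain, had 43.8 ± 11 and 72.5 ± 13.6 CPM, also without overlap. Sil1, an exchange factor of Hspa5 like Hyou1, had 57.6 ± 13.5 and 70.8 ± 19.4 CPM. The J-domain and Hsp70 genes outside the ER, 21 of 24 tested, had a median of 0.03 with none called. Dnajc5 measured 59.2 ± 12.4 and 51.7 ± 17.2 CPM there, Dnaja2 47.7 ± 18.2 and 56.4 ± 9.68 CPM, and Hspa9 102 ± 11.4 and 114 ± 23.9 CPM.

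The ER chaperones and folding enzymes, all 24 of which were tested, had a median of 0.32, with 21 above 0 and 1 called. The called gene was Pdia6, a protein disulfide isomerase, at 457 ± 44.9 CPM in control and 789 ± 97.5 CPM in PPTx samples, a log2 fold change of 0.68 ± 0.14 (SE). Pdia4, another disulfide isomerase, had 38.9 ± 19.4 and 80.0 ± 21.8 CPM. Hspa5 measured 563, 640, 785 and 841 CPM in control and 1024, 1345, 1215 and 1240 CPM in PPTx samples, without overlap, with a log2 fold change of 0.65 ± 0.16 (SE) that was not called. Genes of ER-associated degradation, 19 of 19 tested, had a median of 0.26 with 15 above 0 and none called. Edem2 had 100.3 ± 14.1 and 152 ± 14.8 CPM, Edem1 54.3 ± 6.64 and 81.5 ± 9.79 CPM, and Vimp 169 ± 42.3 and 252 ± 64.3 CPM.

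The sensors and transcription factors of the unfolded protein response, 9 of 12 tested, had a median of -0.08 and none called. Xbp1 was at 248 ± 31.2 CPM in control and 251 ± 36.8 CPM in PPTx samples, Atf6 at 53.3 ± 3.01 and 61.9 ± 22.3 CPM, and Atf4 at 159 ± 45.0 and 156 ± 45.9 CPM. Spliced and unspliced Xbp1 are not separated in these counts. Of the 16 Atf4 targets, 9 were tested, with a median of -0.04 and none called. Atf5 was at 131 ± 35.5 and 115 ± 21.5 CPM, Slc3a2 at 73.5 ± 10.3 and 79.7 ± 12.6 CPM, and Asns at 71.7 ± 8.96 and 73.7 ± 10.7 CPM. The 2 lists outside the ER and the 2 regulatory lists thus had medians within 0.08 of 0, while the lists of ER J-domain, degradation and folding genes had medians of 0.16, 0.26 and 0.32 and Fkbp9, the other ER prolyl isomerase tested, was at -0.19. The quartiles over all genes tested were -0.22 and 0.21. All of these medians were below the 0.68 of the set that was chosen on this difference.

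**Figure D5:**
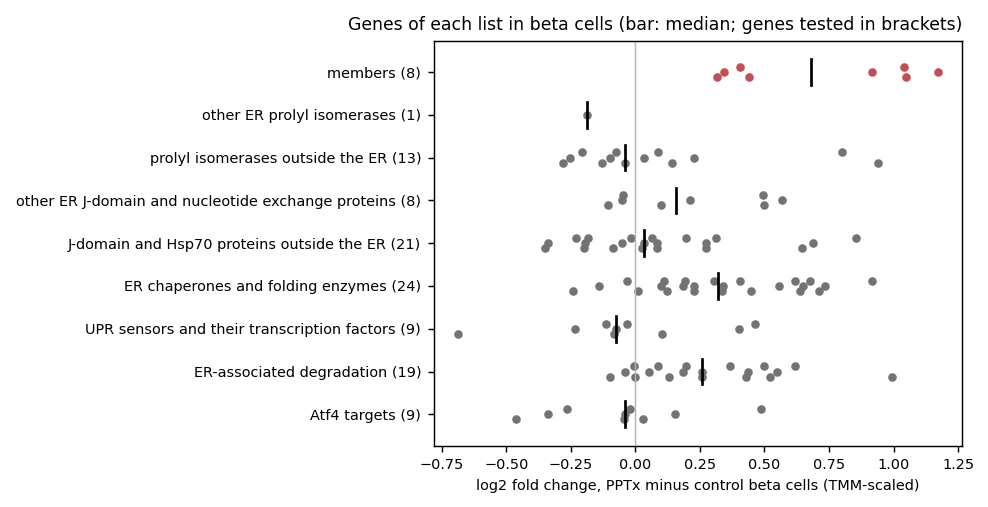
Log2 fold change between PPTx and control beta cells (horizontal axis, TMM-scaled) of each tested gene in 9 lists, with the 8 chosen genes in red, the other lists in grey, a black bar at each list's median and the number tested in brackets. The 8 genes range from 0.32 to 1.17, and the regulatory lists scatter around 0.

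Over 876 thinned beta cells, the correlation of 2 genes of the set within a sample, averaged over 8 samples, had a median of 0.03 over the 28 pairs and ranged from -0.03 for Ppib with Creld2 to 0.17 for Sdf2l1 with Dnajc3. These counts are of a few UMIs per cell, so correlations this weak are no finding. The same limit holds for the following order, which is a description. The genes whose cell-to-cell pattern was most like the summed set were ranked by the same averaged correlation among 771 genes with a UMI in at least 20% of thinned beta cells. The first 10 were Dapl1 (0.20), Pdia6 (0.19), Hsp90b1 (0.19), Hspa5 (0.18), Ssr4 (0.17), Sec11c (0.17), Calr (0.16), Tmed3 (0.16), Manf (0.15) and Srp9 (0.15), against a median of 0.02 over all ranked genes. Cells of 1 sample share a library, and all are thinned to the same depth. Of the 10, 5 are ER chaperones or folding enzymes in the lists above, namely Pdia6, Hsp90b1, Hspa5, Calr and Manf. Ssr4 belongs to the translocon-associated complex, Sec11c is a signal peptidase subunit and Srp9 a subunit of the signal recognition particle.

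The 10 genes were picked from these same beta cells for varying with the set. Calls and p-values among them are therefore descriptions, not independent tests, and nothing is read from their number. Of these 10 genes, edgeR called 2 higher in UMI-rich cells (Dapl1 and Manf), beside 1.05% of all genes tested. In replicating cells it called 2 (Dapl1 higher and Calr lower), beside 5.34% of all genes in either direction. The others did not pass, among them Pdia6 and Hspa5 with an adjusted p of 0.0714 and 0.0712 for UMI-rich cells. Dapl1, the first in this order, measured 49.9, 161, 183 and 176 CPM in control and 296, 313, 347 and 385 CPM in PPTx beta cells, without overlap. It was higher in UMI-rich beta cells by 0.83 ± 0.16 (log2, SE) with an adjusted p of 0.000456 by edgeR (1.3e-05 to 0.212 over 12 alternatives, 10 of which called it), and higher in replicating beta cells by 0.83 ± 0.21 with an adjusted p of 0.00333 by edgeR (4.1e-05 to 0.361 over 11 alternatives, 7 of which called it). Manf, an ER protein secreted under stress, was higher in UMI-rich cells by 0.43 ± 0.11 with an adjusted p of 0.0222 by edgeR (0.00617 to 0.296 over 12 alternatives, 6 of which called it). Calr, the lectin chaperone calreticulin, was lower in replicating cells by 0.67 on the log2 scale ± 0.22 with an adjusted p of 0.0474 by edgeR (0.00886 to 0.282 over 11 alternatives, 5 of which called it). With cells thinned to equal UMIs, edgeR called none of 570 genes between UMI-rich and UMI-poor cells, with log2 differences of 0.61 for Dapl1 and 0.35 for Manf. Both Dapl1 calls were also lost with DESeq2, where its differences were 0.76 between UMI-rich and UMI-poor and 0.73 between replicating and other beta cells.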

How the data were processed

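Per the study's methods and the labels, dissociated islet cells were isolated on a ddSEQ instrument. The methods name a SureCell 3' kit and the labels a Chromium kit. The authors made FASTQ files with bcl2fastq (also in the submitters' processing notes), aligned them to mm10 and counted UMIs with Cell Ranger. The authors deposited whole-number UMI counts per gene and cell, not normalized. The 1240 deposited cells have at least 2005 UMIs each. The study's limits of 100 to 3000 genes and 100 to 20000 UMIs per cell were applied, which removed 8 cells. Doublets were not called.

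The 8 genes, the gene lists and the tests were chosen with earlier results of these data known. Counts were summed per sample and class (at least 5 cells) and fitted with edgeR 4.0.16 (filterByExpr, TMM, quasi-likelihood, two-sided), with the group as the only term for PPTx and the sample as a block within samples, adjusted by Benjamini-Hochberg over all genes tested. The 10 cell-cycle markers were left out of counts of called genes for replicating cells. Thinning used 2600 UMIs, the 10th percentile of cells rounded down to 100. Named genes were the 8 genes, up to 3 per list with at least 50 mean CPM, and the 10 most alike. CPM were computed from the deposited counts. DESeq2 1.42.0, other scalings, filters, classes and samples left out were alternatives. On simulated data with 200 genes changed, 65.7% of 2-fold changes were recovered between PPTx and control in beta cells (5931 genes). The share of 2-fold changes recovered was 95.5% between UMI-rich and UMI-poor cells (1802 genes). Between replicating and other beta cells (2663 genes) it was 22.4%, with 1.49% of 1.5-fold and 63.6% of 3-fold changes recovered. Apart from the changes, each simulated gene had the same expression share in every sample and a spread set by its expression level alone. Real samples differ in these respects, so recovery in the real data may be lower. Samples are numbered as in the labels, each from 1 to 3 mice. For PPTx against control, p-values measure the spread between these samples. In comparisons within samples, where the sample was a block, they measure how the difference varied from sample to sample. Total UMIs per sample set the precision, and sequences come from RefSeq.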

Additional observations from a re-analysis of the deposited data

Results flagged for a closer look

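Among 36 groups of 4 samples checked for a sample far from the others, 1 stood out, and chance flags about 1 in 20 such groups. The summed CPM of the 8 genes in PPTx beta cells was 2639 in sample 2, whereas samples 1, 3 and 4 measured 2219, 2192 and 2193 CPM. PPTx sample 2 also had the lowest share of insulin among beta-cell UMIs, 50.6%, and held 239 of the 582 PPTx beta cells. With hormone UMIs left out of the totals, PPTx samples 1, 2, 3 and 4 measured 6035, 6201, 5848 and 6347 CPM. On that scale sample 2 lay between samples 1 and 4. Without PPTx sample 2, edgeR called the same number of the 8 genes, 4, higher in PPTx beta cells.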

How the results depend on the processing

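Of the 8 genes, 4 were called higher in PPTx beta cells. The number was 2 with cells thinned to equal UMIs and ranged from 1 to 4 when 1 sample at a time was left out. It was 4 under the other alternatives run. The median log2 fold change of the 8 genes was 0.76 with thinned cells and from 0.64 to 0.83 with 1 sample left out. Whether same-numbered control and PPTx samples were paired is not stated. Their deviations correlated at 0.05, 0.03, 0.04 and 0.18, and not every sample correlated best with its own number. Correlations between different numbers ranged from -0.12 to 0.10. Correlations this weak cannot decide whether the samples were paired, and the main fit used no pairing. With a replicate block, 4 of the 8 genes were called and 39 genes in all instead of 19; without a filter on low counts 96 were called, and with thinned cells 6. In alpha and PP cells and for the difference of effects, 0 were called under every alternative that could be fitted, leave-one-out included (0 to 0), though only 1 to 3 of the 8 were tested in alpha cells, and leaving out either PPTx sample there left 1, assumed to vary like the others. Too few samples were left for alpha cells at 10 cells per sample and for every fit of delta cells, and PP cells at 10 cells per sample left 1 control sample, assumed to vary like the others. Every gene of the set that passed the filter was called against alpha and PP cells under each alternative: 7 to 8 against alpha cells when samples were left out, where 7 is 7 of 7 tested, 8 to 8 against PP cells, and 7 of 7 tested against each with thinned cells. Of the 8, 1 was called in replicating cells, and 0 with DESeq2, with at least 1 marker UMI, with thinned cells, with at least 5 replicating cells and whenever a sample was left out (0 to 0). Creld2 and Fkbp2 were at -0.30 and -0.11 with thinned cells there, where the median over all genes tested was -0.31 instead of -0.12, so neither lay below that median. Fkbp2, which ranged from -0.053 to 0.10 when 1 sample was left out, was at -0.047 without control sample 3 and -0.053 without PPTx sample 1. Between UMI-rich and UMI-poor cells 2 were called, 0 with DESeq2, 0 with thinned cells and 0 to 3 with a sample left out. The cause of these changes was not tested. Leaving out cells with markers of other cell types was chosen after seeing the data.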

Other observations

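The 3 promoter motifs searched in the 8 genes were also counted in the related lists. Of 20 ER chaperone and folding genes with a promoter, 5 held the ER stress element and 7 held any of the 3 motifs. Of 12 ER-associated degradation genes with a promoter, 2 held the ER stress element, 1 the second ER stress element and 5 any motif. Of 9 other ER J-domain and nucleotide exchange genes, 1 held the core of the unfolded protein response element, and of 3 other ER prolyl isomerases none held any motif. Among 17 prolyl isomerases outside the ER, 20 J-domain and Hsp70 genes outside the ER, 11 sensors and factors of the unfolded protein response and 15 Atf4 targets with a promoter, none held either ER stress element, and 1, 0, 0 and 0 held any motif. These counts describe letters in 300-base windows.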
